A study of Mus musculus with 9 samples.

Results

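Matrix metalloproteinases (MMPs) are zinc-dependent enzymes that cut collagens, fibronectin, proteoglycans and other proteins of the extracellular matrix. Most are secreted as inactive proenzymes and are activated by removal of a propeptide. Tissue inhibitors of metalloproteinases (TIMPs) bind the active site and block it, and fibroblasts are a main source of both families in connective tissue. The members described here are 7 MMP genes and 3 TIMP genes, found as all noncontrol probes that carry one of their gene names in the array design. They comprise 11 of 55681 probes, and 7 of the 10 genes had a probe that entered the fit over 14319 genes. The 10 genes were chosen on earlier results of the comparison between PBS-treated and control EVs, so their differences between these groups are given as a description, with no p-value.

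The RNA came from extracellular vesicles (EVs), membrane particles released by cells, of mouse embryonic fibroblasts (MEFs). PBS-treated MEFs gave 5 arrays (PBS is phosphate-buffered saline) and control MEFs gave 4 arrays. No genotype, strain or added gene is stated for either group, and the MEFs were purchased cells. Whether the PBS-treated cells were electroporated, as donor cells elsewhere in the study were, is not stated in the labels. Nothing in the labels tells whether replicates were separate cultures, so the spread between them may be technical.

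Signals are log2 processed intensity minus the 75th percentile of the same array over 8421 probes, those marked well above background on each of the 9 arrays (the relative signal). Between 16491 and 19233 probes were well above background on PBS-treated arrays, against 12584 to 15553 on control arrays (exact permutation test over all splits into 5 and 4, two-sided, p = 0.00794). The lowest relative signal of a detected probe lay between -7.22 and -5.87 on PBS-treated arrays and between -6.66 and -4.74 on control arrays. The 30186 probes never well above background had a median difference of -1.34, PBS-treated minus control, against -0.02 over all genes tested. Both slides held both groups. Of 11 fibroblast markers, 9 were well above background on every PBS-treated array and 8 on every control array, and Thy1 was on none. In the fit 3 of them were called higher in PBS-treated EVs (S100a4, Dcn and Lum), 3 lower (Col1a1, Pdgfra and Fn1) and 4 did not pass. Lum was detected on 4 of 5 PBS-treated and 0 of 4 control arrays, with a bound of only 1.17-fold higher. Their summed signal, unlogged and in units of the array's percentile, was 35.0 to 37.9 in PBS-treated and 17.4 to 26.4 in control EVs. The sum runs over 12 probes of the 11 genes, and S100a4 enters it by both of its probes. These had mean relative signals of 3.72 and 3.33 in PBS-treated EVs, against 2.27 and 2.36 in control EVs. The sum therefore weighs S100a4 most and is no measure of the markers as a set. Of the macrophage and other leukocyte markers, 3 of 9 were detected on every PBS-treated array and 4 on every control array. Their summed signal was 1.16 to 2.14 in PBS-treated and 2.23 to 3.45 in control EVs, with Adgre1, Cd68 and Lyz2 never detected. In the fit Cd14 was called higher, Itgam and Csf1r lower, and 2 did not pass. This sum weighs 1 Itgam probe most, with mean relative signals of -0.09 in PBS-treated and 1.21 in control EVs. It is likewise no measure of the markers as a set. Of 7 neutrophil markers, 4 were detected on every PBS-treated array and 2 on every control array, with summed signals of 1.33 to 3.29 in PBS-treated and 1.95 to 7.20 in control EVs. S100a8 and Camp among them were each called higher by probes detected on 5 of 5 PBS-treated and 0 of 4 control arrays, while Csf3r was called lower. Of 4 endothelial markers 1 was detected on every PBS-treated array and 2 on every control array, with summed signals of 0.105 to 0.139 in PBS-treated and 0.244 to 0.424 in control EVs. The epithelial markers summed to 0.0116 to 0.0778 in PBS-treated and 0.0342 to 0.155 in control EVs, with none detected on every array. The part of these cell markers in the results below was not tested. The vesicle tetraspanins differed in direction, PBS-treated minus control, with 0.65 for Cd63 (called higher), 0.53 for Cd9 (not called) and -0.43 for Cd81 (called lower).

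The transcription start regions of 7 of the 10 genes (all but Mmp2, Mmp9 and Mmp19) were found among RefSeq promoters (mouse build GRCm38.p6). The 80 bases before the start of 6 of them are shown, because Mmp3 and Mmp13, which differed most between the groups, share a gene cluster with the undetected Mmp10, and because the inhibitors went in opposite directions. Capitals mark TGANTCA, the core sequence bound by AP-1 factors, TATAAA, the TATA box, and GGGCGG or its reverse complement, the GC box. No 2 of these motifs overlap in the stretches printed.
Mmp3 (chr9:7445742-7445821, plus strand): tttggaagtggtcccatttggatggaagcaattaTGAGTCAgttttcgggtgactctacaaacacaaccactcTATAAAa
Mmp13 (chr9:7272434-7272513, plus strand): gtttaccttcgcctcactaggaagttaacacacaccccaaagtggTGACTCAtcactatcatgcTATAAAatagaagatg
Mmp10 (chr9:7502262-7502341, plus strand): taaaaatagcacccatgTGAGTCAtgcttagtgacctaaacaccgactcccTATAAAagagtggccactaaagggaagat
Timp1 (chrX:20870086-20870165, plus strand): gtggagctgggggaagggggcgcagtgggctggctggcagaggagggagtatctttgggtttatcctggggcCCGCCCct
Timp2 (chr11:118355412-118355491, minus strand): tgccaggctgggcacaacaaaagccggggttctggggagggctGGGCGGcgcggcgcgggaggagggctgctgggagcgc
Timp3 (chr10:86300332-86300411, plus strand): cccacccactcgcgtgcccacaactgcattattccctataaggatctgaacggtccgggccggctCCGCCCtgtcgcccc

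The windows searched ran from 250 bases before to 50 bases after each start, on both strands. TGANTCA occurred once in Mmp3, Mmp10 and Mmp13, with its first base 46, 63 and 35 bases before the start, and in none of Mmp14, Timp1, Timp2 and Timp3. TATAAA occurred in the same 3 genes, with its first base 7, 29 and 16 bases before the start, and GGGCGG in the other 4. All distances are counted from the RefSeq start, whose use in these cells was not measured, so they may not compare between genes. Over all 32851 windows of 300 bases, 7.81% held TGANTCA, 13.6% held TATAAA and 35.7% held GGGCGG. A match is a description of the letters, and no binding was measured.

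Mmp3 showed the widest separation of the members. It encodes stromelysin 1, which cuts proteoglycans, laminin and fibronectin and can activate other pro-MMPs. Its probe (NM_010809, mm9 chr9:7455751-7455810) had relative signals of 1.64, 1.74, 1.53, 1.80 and 1.93 in PBS-treated EVs, against -7.61, -7.59, -5.92 and -5.95 in control EVs. Every PBS-treated array was well above background and no control array was, so the groups did not overlap. In processed intensity units, before scaling, this was 3803 to 7275 in PBS-treated and 4.0 to 7.5 in control EVs. Mmp3 was at least 158-fold higher in PBS-treated EVs, where a control array counts at the lowest signal of any detected probe unless the Mmp3 probe read higher. The measured difference of the means was 8.49 ± 0.40 (SE) on the log2 scale, and it was 9.24 within slide 1 and 7.80 within slide 2. With normexp background correction, which adds an offset of 50 to every signal, it was 4.97.

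Mmp13, which encodes a main interstitial collagenase of the mouse, followed the same pattern at a lower signal. Its probe (NM_008607, mm9 chr9:7282762-7282821) read -2.86, -3.05, -3.11, -3.25 and -2.74 in PBS-treated EVs, against -7.99, -7.99, -6.53 and -6.51 in control EVs. It was well above background on 5 of 5 PBS-treated and 0 of 4 control arrays. The bound was at least 5.97-fold higher in PBS-treated EVs, and the measured difference was 4.25 ± 0.36 (SE). It was 0.89 under normexp and 1.53 in the deposited value table, whose columns rank the probes as the mean signal without background subtraction does. Both control arrays of slide 1 read lower than both of slide 2 for Mmp3 and for Mmp13.

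Mmp10 encodes stromelysin 2, a close relative of Mmp3, and its single probe (NM_019471, mm9 chr9:7510011-7510070) was not well above background on any of the 9 arrays. Processed intensities ran from 3.1 to 17.5 in PBS-treated and from 3.4 to 21.5 in control EVs, with overlap. Mmp3, Mmp10 and Mmp13 stand in 1 cluster of 10 Mmp genes on chromosome 9. Along that cluster, Mmp13 and Mmp3 were the 2 genes well above background on every PBS-treated array, and 6 genes were not on any array. Mmp12, macrophage elastase, was on 1 PBS-treated and 0 control arrays. Mmp7, matrilysin, was on 1 PBS-treated and 2 control arrays. The 2 neighbours of Mmp3 in this order, Mmp1b and Mmp1a, were on none.

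**Figure D1:**
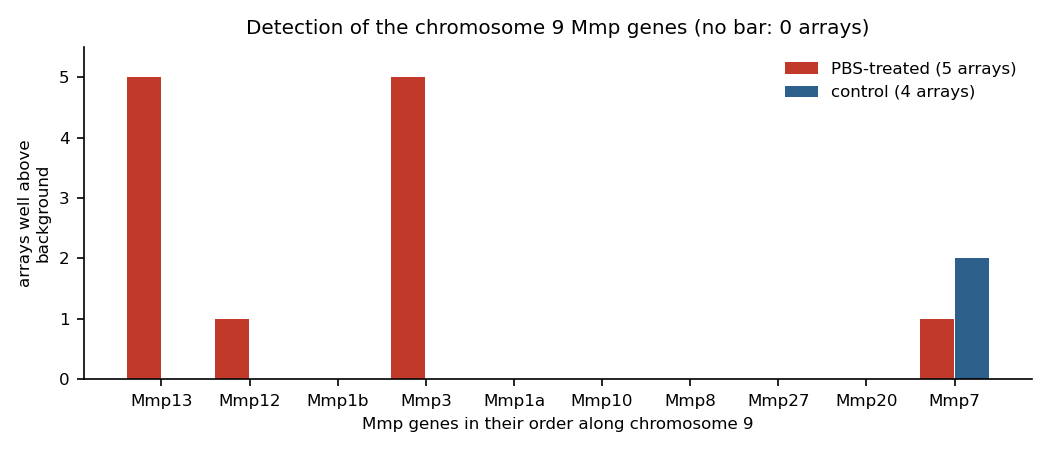
Number of arrays (y axis, 0 to 5) on which the best-detected probe of each Mmp gene of chromosome 9 was well above background, for PBS-treated (left bar) and control (right bar) EVs, in gene order (x axis). Mmp13 and Mmp3 reach 5 of 5 PBS-treated and 0 of 4 control arrays, and Mmp10 has no bar.

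The gelatinases differed in detection. Mmp2 encodes gelatinase A, which cuts denatured and basement membrane collagens, and its probe (NM_008610, mm9 chr8:95376840-95376899) was well above background on all 9 arrays. Relative signals were -1.92, -1.93, -1.75, -1.67 and -1.78 in PBS-treated EVs, against -2.25, -2.56, -2.99 and -3.27 in control EVs. The groups did not overlap, with a difference of 0.96 ± 0.21 (SE), or 1.95-fold higher in PBS-treated EVs. The difference was 0.54 within slide 1 and 1.41 within slide 2. Within the control group both arrays of slide 2 were the lowest. Mmp9 encodes gelatinase B. Its probe (NM_013599, mm9 chr2:164780620-164780679) was printed in 10 spots, and 0 of 90 spot readings over the 9 arrays were well above background. Mmp9 processed intensities were 3.1 to 5.7 in PBS-treated and 3.5 to 5.9 in control EVs, so Mmp9 was not detectable in either group.

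Mmp14 encodes a membrane-anchored MMP that cleaves collagen and activates pro-Mmp2. Its probe (NM_008608, mm9 chr14:55058775-55058834) was well above background on 4 of 5 PBS-treated and 2 of 4 control arrays. Relative signals were -6.06, -5.72, -5.38, -5.44 and -5.43 in PBS-treated EVs, against -5.06, -4.53, -4.37 and -4.97 in control EVs. The groups did not overlap on this scale, with a difference of -0.87 ± 0.21 (SE), smaller in size than the median of -1.34 over probes never detected. In processed intensity, before scaling, the groups overlapped, at 22.6 to 41.5 in PBS-treated and 13.8 to 44.3 in control EVs. The difference turned to 0.43 when scaled to spike-in probes and was -0.11 in the deposited value table, neither of them called. Mmp19, a secreted MMP of broad specificity, was detected on 1 of 5 PBS-treated and 0 of 4 control arrays (NM_021412, mm9 chr10:128236221-128236280). Its processed intensity was 4.7 to 18.8 in PBS-treated and 4.4 to 11.3 in control EVs, and it was not tested.

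All 3 inhibitor genes were detected on each of the 9 arrays. Timp1 encodes a soluble inhibitor of most secreted MMPs. Its probe (NM_001044384, mm9 chrX:20451802-20451861) read 1.66, 1.73, 1.60, 1.76 and 1.63 in PBS-treated EVs, against 0.94, 0.81, 0.98 and 0.85 in control EVs. The replicate spread was narrow (SD 0.07, n = 5, and 0.08, n = 4), and the groups did not overlap. The difference was 0.78 ± 0.10 (SE), 1.72-fold higher in PBS-treated EVs, with 0.79 within slide 1 and 0.78 within slide 2.

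**Figure D2:**
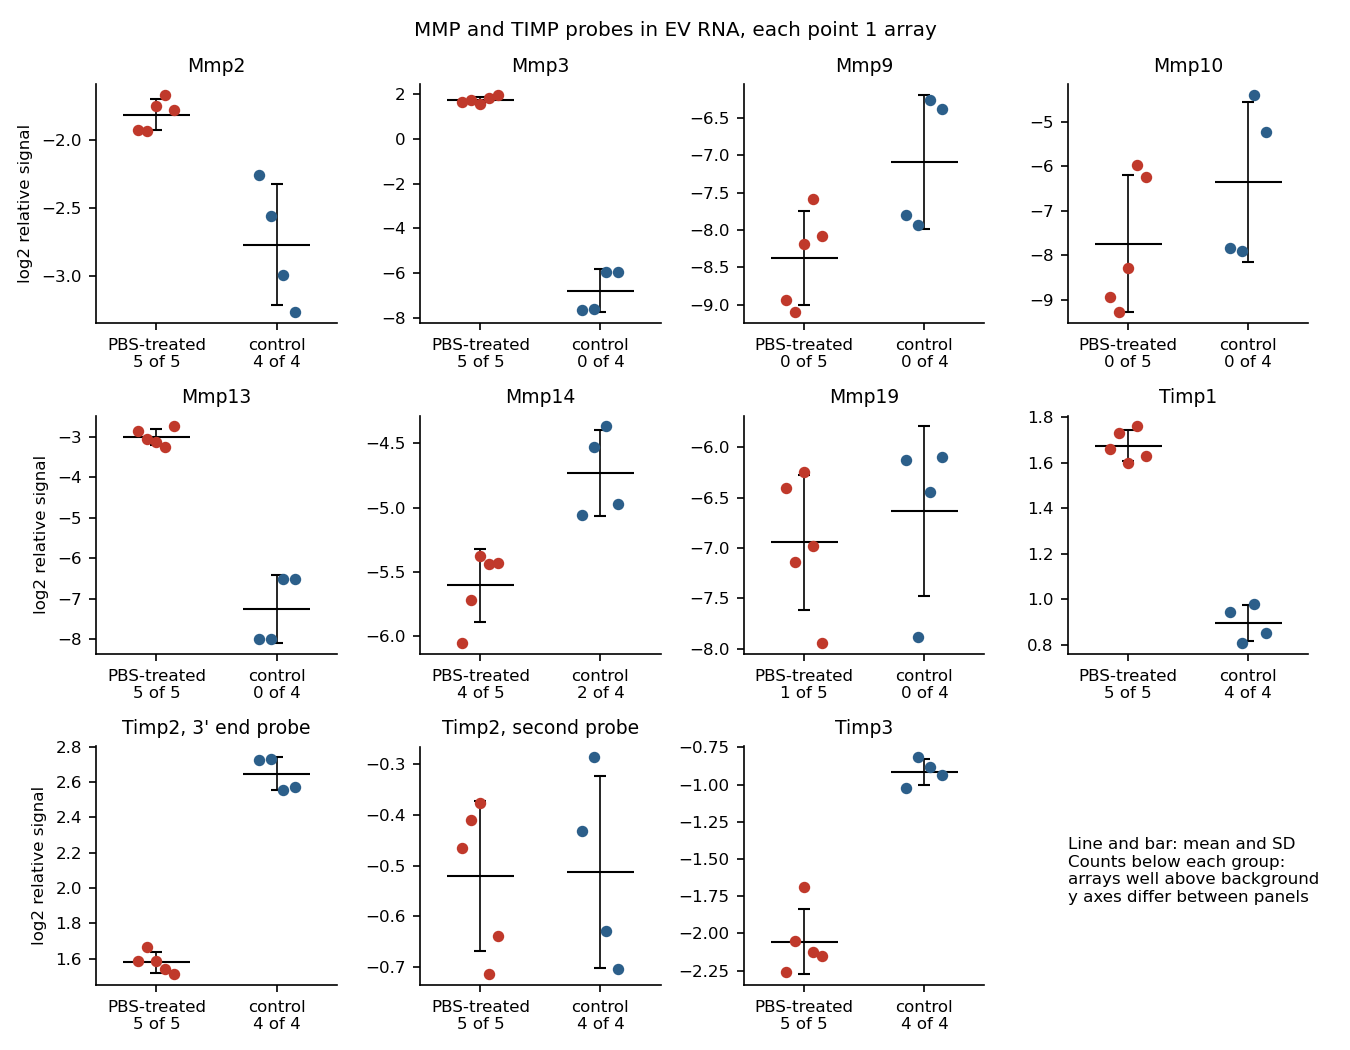
Relative log2 signal (y axis) of each member probe on every array, PBS-treated left and control right. Points are arrays, the line and bar are the mean and SD, and the counts under each group are arrays well above background. Timp1 lies above 1.59 on all PBS-treated and below 0.99 on all control arrays, while the Timp2 second probe overlaps between the groups.

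Timp2 inhibits MMPs and also takes part in the activation of pro-Mmp2 by Mmp14. The array probes 2 regions of it, and these did not move alike. The first probe (NM_011594, mm9 chr11:118163146-118163205) lies nearer the 3′ end of the gene. It read 1.59, 1.66, 1.59, 1.54 and 1.51 in PBS-treated EVs, against 2.72, 2.73, 2.56 and 2.57 in control EVs. The groups did not overlap, with a difference of -1.07 ± 0.10 (SE), 2.10-fold lower in PBS-treated EVs. The second probe (same transcript, given in the array annotation as spanning mm9 chr11:118171964-118178741, more than its own length) read -0.47, -0.41, -0.38, -0.71 and -0.64 in PBS-treated EVs, against -0.43, -0.29, -0.63 and -0.70 in control EVs. Here the groups overlapped, with a difference of -0.01 ± 0.14 (SE), and the probe was not called. On each array the 3′ end probe minus the second probe was 2.10 ± 0.11 (SD, n = 5) for PBS-treated EVs and 3.16 ± 0.11 (SD, n = 4) for control EVs, with no overlap. This gap between the probes changed by -1.06, by -1.06 within slide 1 and -1.03 within slide 2, and by -0.59 under normexp. A single Timp2 value therefore depends on the probe, and the lower value in PBS-treated EVs was seen at 1 of the 2 probes.

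Timp3 encodes an inhibitor that binds the extracellular matrix and also blocks several ADAM and ADAMTS enzymes. Its probe (NM_011595, mm9 chr10:85811696-85811755) read -2.26, -2.05, -1.69, -2.13 and -2.15 in PBS-treated EVs, against -1.02, -0.82, -0.88 and -0.93 in control EVs. All 5 PBS-treated arrays were below all 4 control arrays. The difference was -1.14 ± 0.14 (SE), 2.20-fold lower in PBS-treated EVs, with -1.08 within slide 1 and -1.23 within slide 2. In bulk RNA, fewer vesicles carrying a transcript and less of it in each vesicle cannot be told apart, and each value is relative to the other signals of its array.

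By the probe of highest signal, 4 of the 7 genes tested were called higher in PBS-treated EVs (Mmp2, Mmp3, Mmp13 and Timp1) and 3 lower (Mmp14, Timp2 and Timp3), by limma with Benjamini-Hochberg adjustment over all probes. Over all 14319 genes, 31.5% were called higher and 20.7% lower. The same 4 and 3 genes had groups that did not overlap, against 29.4% of all genes with PBS-treated EVs higher and 17.6% with PBS-treated EVs lower. The members were selected on this comparison, and nothing is read from these shares. Mmp3 and Mmp13 entered the fit through the PBS-treated arrays alone, so their calls compare detected signal with background. Over the 7 tested members the median difference was 0.78, against -0.02 over all genes tested.

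The calls to the lower side depended on the scaling. When arrays were scaled to 8 spike-in probes in place of the percentile, the median difference of all genes was 1.28, and Timp2 (3′ end probe) and Timp3 differed by 0.23 and 0.16, neither of them called. Timp1 then differed by 2.08, Mmp2 by 2.26, Mmp3 by 9.80 and Mmp13 by 5.55. So Mmp2, Mmp3, Mmp13 and Timp1 were higher in PBS-treated EVs under all 6 scalings and background corrections drawn, while Mmp14, Timp2 (3′ end probe) and Timp3 had differences below 0 in 5 of them and above 0 under the spike-in scale. Timp2 and Timp3 were called lower in 4 of the 6, and Mmp14 in 2. Against the median of all genes on the spike-in scale, Timp2 (3′ end probe) and Timp3 lay below it and Timp1 above it. Spike-in scaling shifts all probes of an array alike, so this order is that of the main scale and adds no support.

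**Figure D3:**
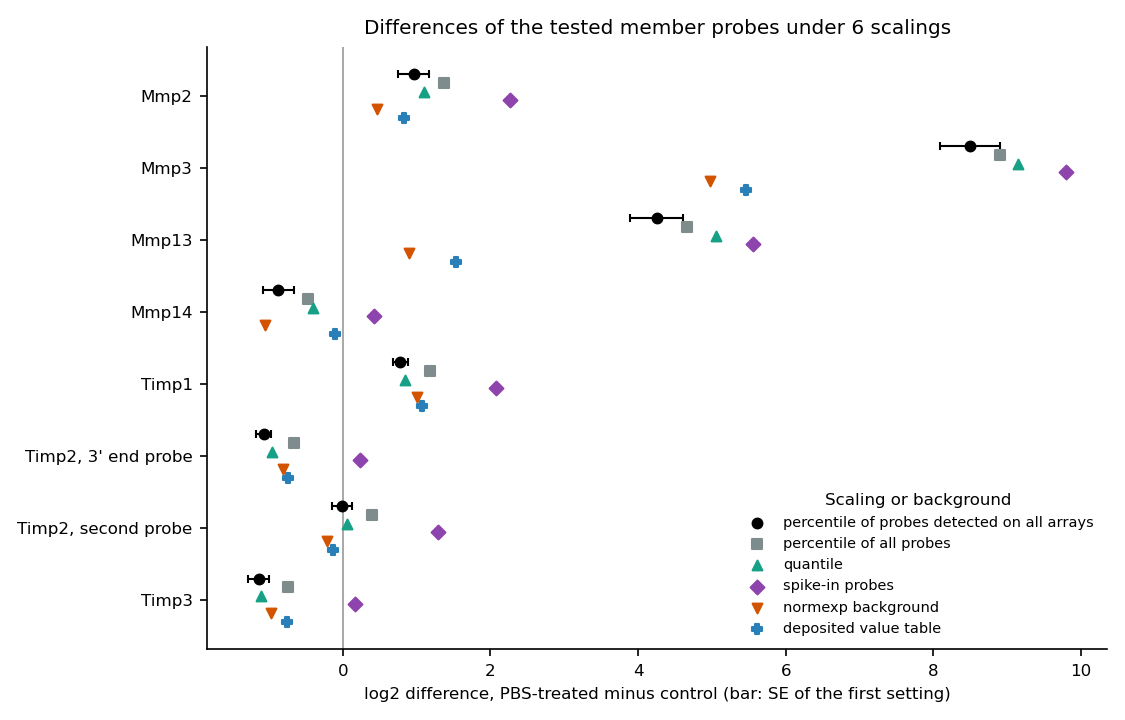
Difference between PBS-treated and control EVs (x axis, log2, PBS-treated minus control) of the 8 tested member probes (y axis) under 6 scalings or background corrections, each a marker. The bar is the SE of the first setting. Mmp3 stays above 4.9 under each of them, while the Timp2 3′ end probe and Timp3 stand left of 0 except under the spike-in scale. The Timp2 second probe lies on both sides of 0.

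A difference between 2 probes on the same array does not change when the array is scaled by a constant, such as a percentile or the spike-in mean. Its change between the groups was read for 8 pairs of members. Quantile normalization and the value table are not scalings by a constant, and the pairs were not recalculated under them. Timp1 minus Timp2 (3′ end probe) was 0.08, 0.07, 0.01, 0.22 and 0.12 in PBS-treated EVs, against -1.78, -1.92, -1.58 and -1.72 in control EVs. This difference changed by 1.85 on the log2 scale, by 1.90 within slide 1 and by 1.82 within slide 2, and by 1.81 under normexp. With the second Timp2 probe it was 2.20 ± 0.19 (SD, n = 5) for PBS-treated EVs and 1.41 ± 0.23 (SD, n = 4) for control EVs, a change of 0.79 that also kept the groups apart. Timp1 minus Timp3 was 3.73 ± 0.26 (SD, n = 5) for PBS-treated EVs and 1.81 ± 0.15 (SD, n = 4) for control EVs, a change of 1.92. Neither pair overlapped between the groups.

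For enzymes against inhibitors, Mmp2 minus Timp2 (3′ end probe) was -3.39 ± 0.16 (SD, n = 5) for PBS-treated EVs and -5.41 ± 0.37 (SD, n = 4) for control EVs, a change of 2.03, of 1.27 under normexp and of 0.97 with the second Timp2 probe. Mmp14 minus Timp2 (3′ end probe) overlapped between the groups, at -7.18 ± 0.32 (SD, n = 5) for PBS-treated EVs and -7.38 ± 0.37 (SD, n = 4) for control EVs. With the second Timp2 probe the groups did not overlap, at -5.59 to -4.73 in PBS-treated and -4.63 to -3.74 in control EVs, so the reading depends on the probe. Mmp14 minus Mmp2 was -3.80 ± 0.20 (SD, n = 5) for PBS-treated EVs and -1.96 ± 0.61 (SD, n = 4) for control EVs, a change of -1.83. Mmp14 was near background, detected on 4 of 5 PBS-treated and 2 of 4 control arrays, which limits both of its pairs. Mmp3 minus Timp1 changed by 7.72 and Mmp13 minus Timp1 by 3.47, but control signals of both enzymes were at background, and the second became -0.12 under normexp. Mmp9 minus Timp1 changed by -2.06 with Mmp9 at background in both groups. Both probes were detected on all 9 arrays in 3 of the 8 pairs (Timp1 with Timp2, Timp1 with Timp3, and Mmp2 with Timp2), and these 3 did not overlap between the groups. Each sets a member whose groups did not overlap, PBS-treated higher, against one whose groups did not overlap, PBS-treated lower. Their separation was thus fixed by members chosen on this comparison, and nothing is read from it.

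**Figure D4:**
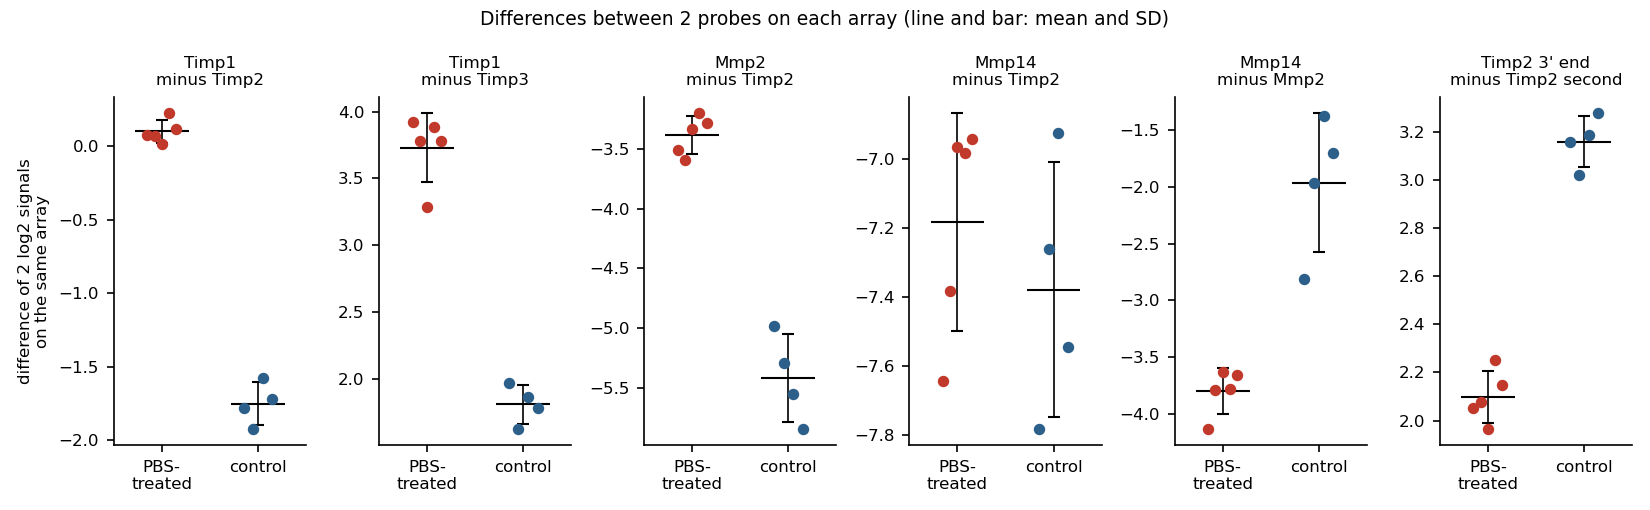
Difference of 2 log2 signals measured on the same array (y axis) for 5 member pairs and for the 2 Timp2 probes, PBS-treated left and control right. Points are arrays, with mean and SD. Timp1 minus Timp2 lies above 0 on all 5 PBS-treated arrays and below -1.5 on all 4 control arrays, and Mmp14 minus Timp2 overlaps. All pairs with Timp2 use its 3′ end probe.

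Genes whose pattern over the 9 arrays was most like that of Mmp3 were Ccl7 (Pearson r = 0.999), a chemokine that attracts monocytes, Ereg (r = 0.999), an EGF receptor ligand, and Cda (r = 0.998), cytidine deaminase. Those most like Timp1 were Nupl2 (r = 0.996), Dcaf12 (r = 0.993) and Psma3 (r = 0.993), a proteasome subunit. These values share the 2 groups and the array scale, and 658 of 9583 genes exceeded an r of 0.95 with Mmp3 and 709 did so with Timp1.

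The rest of the MMP family was mostly below detection. This list and those that follow were chosen with earlier results of these data known. The p-values of their genes are therefore a description. Of 17 other MMP and TIMP genes on the array, 10 were not well above background on any array. In the fit, 3 were tested (Mmp11, Mmp17 and Mmp24), and 0 passed in either direction by limma with Benjamini-Hochberg adjustment, or at an unadjusted p under 0.05. With slide as a block, Mmp17 (-1.03, adjusted p = 0.00516) and Mmp24 (-0.75, adjusted p = 0.00451) were called lower by limma. Mmp11, stromelysin 3, had a difference of -0.20 ± 0.16 (SE, adjusted p = 0.342), PBS-treated minus control. Mmp23 was chosen after its values were seen. It was well above background on 0 of 5 PBS-treated and 3 of 4 control arrays and was at least 7.69-fold lower in PBS-treated EVs, with too few arrays detected to be tested. The bound pools both slides, and the measured Mmp23 difference was -2.34 within slide 1 and -5.61 within slide 2. The median difference of the 3 tested genes was -1.04, against -0.02 over all genes and -1.34 over probes never well above background. Mmp11, Mmp17 and Mmp24 were each below detection on some arrays of both or of 1 group.

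Among activators and regulators of MMPs, 10 of 17 genes were tested, 3 rose, 2 fell and 5 did not pass, with a median difference of -0.38 (limma, adjusted p under 0.05 over all probes), beside the 31.5% of all genes called higher and 20.7% called lower. Plaur, the urokinase receptor, had a mean relative signal of -3.57 ± 0.11 (SD, n = 5) for PBS-treated EVs and -5.04 ± 0.76 (SD, n = 4) for control EVs (difference 1.46 ± 0.32 SE, limma adjusted p = 0.00477). Plaur was well above background on 5 of 5 PBS-treated and 2 of 4 control arrays. Cd44, a hyaluronan receptor that can hold Mmp9 at the cell surface, differed by 0.93 ± 0.24 (SE, limma adjusted p = 0.011). A second tested Cd44 probe differed by 0.44 ± 0.12 (SE, limma adjusted p = 0.0122). Within slide 2 alone the first Cd44 probe differed by 0.50 and was not called. Neither Plaur nor Cd44 passed under normexp, where Plaur differed by 0.05 and Cd44, by its first probe, by 0.20.

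Both thrombospondins on the list, matrix glycoproteins that bind MMPs, were lower in PBS-treated EVs on the main scale, but neither was called lower under 4 other scalings or background settings. Thbs1 had a mean of -5.30 ± 0.51 (SD, n = 5) for PBS-treated EVs and -3.60 ± 0.79 (SD, n = 4) for control EVs (difference -1.69 ± 0.40 SE, limma adjusted p = 0.00702). Thbs1 was near background, detected on 4 of 5 PBS-treated and 2 of 4 control arrays. Thbs2 differed by -0.40 ± 0.14 (SE, adjusted p = 0.0369), and by 0.90 when scaled to spike-in probes. Reck, a membrane inhibitor of MMPs, differed by -0.93 ± 0.50 (SE, adjusted p = 0.152), and Bsg, which induces MMPs in fibroblasts, by -0.36 ± 0.15 (SE, adjusted p = 0.0736). With slide as a block Bsg differed by -0.38 and was called lower (limma adjusted p = 0.0252).

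**Figure D5:**
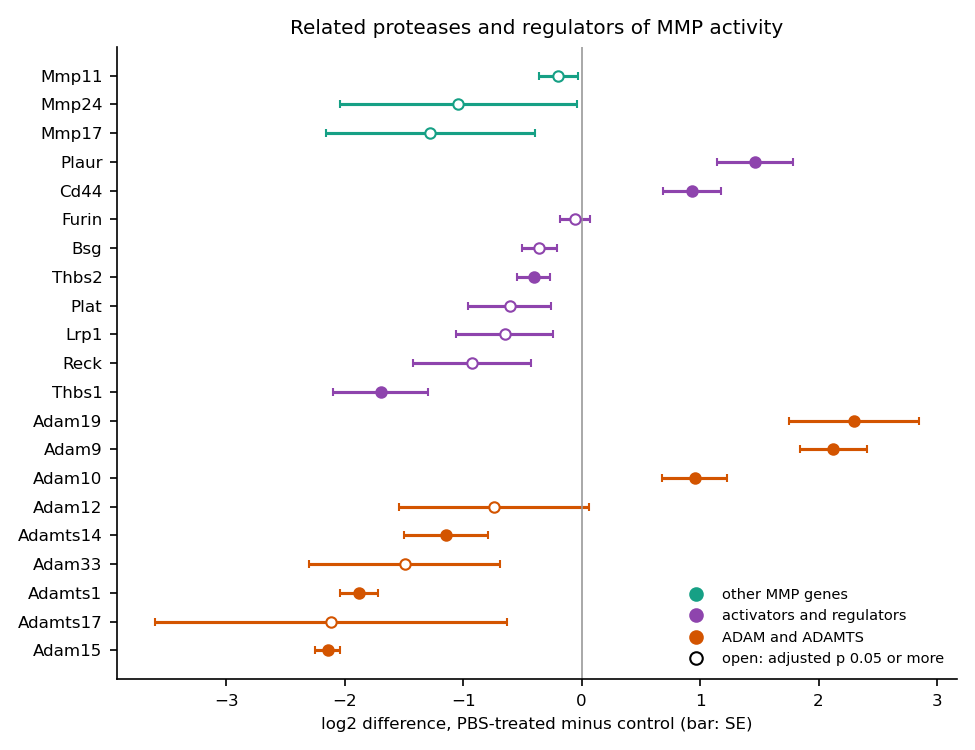
Difference (x axis, log2, PBS-treated minus control, bar SE) of tested genes reported here (y axis) in 3 related lists, closed where the adjusted p was under 0.05. Plaur, Cd44, Adam9, Adam10 and Adam19 lie to the right of 0. Adam15 and Adamts1 (closed) and Adamts17 (open, SE 1.48) lie near -2.

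Of 26 ADAM and ADAMTS genes, 9 were tested, 3 rose, 3 fell and 3 did not pass, with a median difference of -1.14, beside the same 31.5% and 20.7% over all genes. The median over probes never well above background was -1.34. ADAM proteases are membrane sheddases and ADAMTS proteases act in the matrix, and several are targets of Timp3. Adam9 had a mean relative signal of -0.90 ± 0.09 (SD, n = 5) for PBS-treated EVs and -3.02 ± 0.66 (SD, n = 4) for control EVs (difference 2.12 ± 0.28 SE, limma adjusted p = 0.000316). Adam19 was well above background on 5 of 5 PBS-treated and 0 of 4 control arrays and was at least 2.74-fold higher in PBS-treated EVs, with a difference of 0.21 under normexp. It entered the fit through the PBS-treated arrays alone, so its call compares detected signal with background. Adam10, a sheddase of Notch, differed by 0.95 ± 0.28 (SE, limma adjusted p = 0.0184), and by -0.14 under normexp, and it did not pass with the percentile of all probes, quantile normalization or the value table. Adam10 was well above background on 5 of 5 PBS-treated and 2 of 4 control arrays.

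Adam15 had a mean of -1.89 ± 0.08 (SD, n = 5) for PBS-treated EVs and 0.25 ± 0.08 (SD, n = 4) for control EVs (difference -2.14 ± 0.10 SE, limma adjusted p = 2.18e-06). Adamts1, which cuts versican and aggrecan, had a mean of -3.79 ± 0.27 (SD, n = 5) for PBS-treated EVs and -1.92 ± 0.11 (SD, n = 4) for control EVs (difference -1.88 ± 0.16 SE, limma adjusted p = 3.26e-05). Adamts14, a procollagen N-propeptidase, differed by -1.14 ± 0.36 (SE, limma adjusted p = 0.025), and its groups overlapped. Adamts14 was near background, detected on 4 of 5 PBS-treated and 2 of 4 control arrays. It differed by 0.16 on the spike-in scale, and it was not called in 9 of 22 alternatives, among them 4 other scalings, slide 2 alone and without control replicate 1, 2 or 4. Adamts15, chosen after its values were seen, was well above background on 0 of 5 PBS-treated and 3 of 4 control arrays and at least 13.3-fold lower in PBS-treated EVs, without a test. Adam9 was called higher, and Adam15 and Adamts1 lower, under each alternative run.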

How the data were processed

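Per the labels, total EV RNA was reverse transcribed, labelled with cyanine 3 and hybridised, 1 sample per array, to a 1-colour Agilent mouse design. The authors quantified the spots with Agilent Feature Extraction 10.7.3.1 and an in-house pipeline. The deposited scanner files hold spot intensity on a linear scale (processed, mean and local background), and a deposited value table holds log2 values, whose normalization and centring are not given in the sources used here. Its median was 5.97 on each array, and it served as an alternative only. Coordinates are those of the array annotation (mm9).

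Control and outlier-flagged spots were left out and spots of 1 probe averaged. Log2 processed intensity was scaled to the 75th percentile of probes well above background on all arrays. Probes well above background on at least 4 arrays (17765) were compared two-sided by lmFit and eBayes of limma 3.58.1 under R 4.3.3. P-values were adjusted by Benjamini-Hochberg over all probes, with a threshold of 0.05. The study's methods name no test for these arrays. A gene took its tested probe of highest mean. Symbols were updated by RefSeq accession (26413 probes matched). The fit was tested on simulated data. Members and lists were chosen with earlier results of these data known. Named genes were all members, up to 3 called genes of smallest p per direction from each other list, the 3 most correlated genes of Mmp3 and Timp1, and vesicle markers. A gene that this rule names is not reported here, but the counts over its list include it. Same-numbered replicates deviated together for numbers 1, 2 and 4 (r of 0.69, 0.72 and 0.72), which share a slide, and not for number 3 (r = -0.52), which does not, so the numbers were not taken as pairs. Alternatives covered scaling, background correction, filters, slide, replicate block, weights, variance prior, probe choice and leaving out each array. The number of arrays limits the precision.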

Additional observations from a re-analysis of the deposited data

How the results depend on the processing

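Of 180 recalculated differences of member probes, 162 kept their direction and side of the threshold, 7 kept the direction without passing and 11 changed sign. Mmp2, Mmp3, Mmp13 and Timp1 kept both under every alternative that could test them. They were chosen on this comparison, so their kept calls are a description. For Mmp3 and Mmp13 each such call compares detected signal with background. The changes of sign were those of Mmp14 (0.43), the Timp2 3′ end probe (0.23) and Timp3 (0.16) on the spike-in scale, and 8 of the second Timp2 probe, whose main difference was -0.01. That probe differed by 0.396 with the percentile of all probes, 1.29 with spike-in probes and 0.058 with quantile normalization, and by -0.072 to 0.067 when single arrays were left out. With the replicate block, which changed no call of a member, it differed by 0.021. Same-numbered samples share no more than a number and, in part, a slide.

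Members called lower numbered 0 with the percentile of all probes and with spike-in probes, against 3, beside 9.57% and 4.9% of all genes against 20.7%. Members called higher numbered 2, against 4, among probes well above background on all 9 arrays, where Mmp3 and Mmp13 leave the test by construction. In the related lists, Thbs2 turned to 0 with the percentile of all probes and 0.897 with spike-in probes, Adamts14 to 0.157 with spike-in probes and Adam10 to -0.144 under normexp. On the spike-in scale, where 62.8% of all genes were called higher and 4.9% lower, 1 other MMP gene and 6 regulators were called higher and 0 regulators lower. Under normexp, where 13.1% of all genes were called higher and 32.9% lower, 0 regulators and 1 ADAM or ADAMTS gene were called higher, and 5 regulators and 1 other MMP gene lower. Regulators called lower numbered 0 with the percentile of all probes, quantile normalization and the value table, beside 9.57%, 14.7% and 13.4% of all genes. They numbered 4 with the slide as a block, within slide 1 and with array weights, beside 34.2%, 31.2% and 29.6%. They numbered 1 with the replicate block, beside 23.7%, and 1 to 3 without single arrays, beside 18.1% to 20.5%. Without a filter 6 ADAM or ADAMTS genes and 1 other MMP gene were called lower, beside 12.3% of the 36492 genes then tested. Among probes detected on all arrays 1 regulator and 1 ADAM or ADAMTS gene were called higher, beside 32.9% of all genes. With the slide as a block 5 ADAM or ADAMTS and 2 other MMP genes were called lower, beside 34.2% of all genes. Within either slide alone 5 and 1 were, beside 31.2% of all genes in slide 1 and 30.4% in slide 2. With array weights 1 other MMP gene was, beside 29.6% of all genes. Within-array differences against Timp2 moved with its probe, to 0.79 for Timp1, 0.97 for Mmp2 and -0.86 for Mmp14 with the second probe, an alternative chosen after seeing the data. The cause of these changes was not tested.

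One limit is signal over background. Mmp3 and Mmp13 have only bounds because control arrays did not detect them, and Mmp9, Mmp10 and Mmp19 could not be compared. The number of probes detected differed between the groups, and dim probes shifted with it.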
